A study of Mus musculus with 5 samples.

Results

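The cytosolic ribosomal protein genes were followed through single-cell RNA-seq of spinal cord cells sorted for a green fluorescent Col1a1 reporter. The members were every gene present in all 5 count tables whose symbol is Rpl or Rps with a number, or Rplp0, Rplp1, Rplp2 or Rpsa. Pseudogene symbols and the Rps6k kinases were left out. This gave 81 of 27998 genes, 50 of them named for the large and 31 for the small subunit, spread over 19 chromosomes. The mice carried the Col1a1GFP reporter on a C57/BL6 background and were either healthy (libraries Healthy 1, Healthy 2 and Healthy 3) or had experimental autoimmune encephalomyelitis, EAE, a model in which immune cells inflame the cord (EAE 1 and EAE 2). The title of EAE 1 carries no number, so its number follows the order of the samples. The labels give no age, and no label ties a library to its own animal. The p-values therefore measure only how far these libraries scatter, which may be technical. The Col1a1 promoter drives the reporter, so a cell entered only if it was bright enough for the sort.

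Ribosomal proteins assemble with ribosomal RNA into the large and the small subunit, which together translate messenger RNA. Their messages begin with a C followed by a run of pyrimidines (C or T in the DNA), the terminal oligopyrimidine motif, through which growth signals of the mTOR pathway set how strongly they are translated. Cells that grow, divide or secrete much protein usually carry more of these messages, and activated lymphocytes are a known example.

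Of the 81 members, 60 had an entry among the RefSeq promoters of build GRCm38.p6, and in 32 of these 60 (53.3%) an unbroken run of at least 7 letters, each C or T, lay between 10 bases before and 20 bases after the annotated start on the gene's own strand. The same window held such a run in 20.5% of all 27025 genes in the table and in 21.2% of the 7507 genes tested below. On the opposite strand the shares were 5.00% of members and 23.4% of all genes. The letters CTTTCC stood in the window of 10 members (16.7%) and of 1.52% of all genes, and CTCTTT in that of 7 members (11.7%) and of 1.20% of all genes. Both short motifs can lie within a run and can overlap each other. On the opposite strand neither occurred in a member (1.51% and 1.16% of all genes). The shorter CTTCC, also searched, was less tied to the strand. It stood in the window of 12 members (20%) and, on the opposite strand, in that of 8 members (13.3%). The shares were 7.49% and 8.67% for all genes, and 10.3% and 11.7% for the 7507 genes tested below. The 30-base windows of 7 members are shown, 5′ to 3′ on the gene's strand with the longest run of C or T in capitals. Rps18 (chr17:33955646-33955675, minus), Rpl28 (chr7:4792955-4792984, plus), Rpl35 (chr2:39005112-39005141, minus) and Rplp2 (chr7:141447641-141447670, plus) carried a run and rose in EAE. Rps27 (chr3:90213629-90213658, minus) carried a run and did not pass the test. Rpl41 (chr10:128549149-128549178, minus) rose and Rpl10 (chrX:74270806-74270835, plus) did not pass, and neither held a run of 7 in this window.
Rps18: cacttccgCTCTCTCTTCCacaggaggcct
Rpl28: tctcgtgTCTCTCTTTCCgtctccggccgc
Rpl35: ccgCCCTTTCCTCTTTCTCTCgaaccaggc
Rplp2: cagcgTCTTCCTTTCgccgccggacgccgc
Rps27: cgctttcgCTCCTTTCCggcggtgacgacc
Rpl41: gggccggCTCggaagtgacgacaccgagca
Rpl10: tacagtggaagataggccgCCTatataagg
A match is a description of these letters, and a missing match says only that the run is not in this window.

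The first batch (Healthy 1, Healthy 2 and EAE 1) and the second (Healthy 3 and EAE 2, whose labels carry a lane) differed in the cells they shared. In the first batch 1552 barcodes occurred in more than 1 library, and each was kept where its UMI (unique molecular identifier, 1 per captured molecule) total was highest. This removed 67.6% of the barcodes of Healthy 1 and 61.2% of those of Healthy 2. The cells then used numbered 724, 429 and 374 (Healthy 1 to 3), 1913 (EAE 1) and 1238 (EAE 2), and their median UMI counts were 1213, 3195, 4273, 4562 and 5028 in the same order. Cells were assigned to classes by marker genes, none of them a ribosomal protein gene, and doublets were not removed. The 13 fibroblast markers were all detected in the fibroblast-like cells of each library. Fibroblast-like cells made up 84.8% to 92.2% of each library and mural-like cells (pericytes and vascular smooth muscle) 2.58% to 9.09%. Immune-like cells numbered 123 in EAE 1 and 32 in EAE 2, while the Healthy libraries had 1, 2 and 0.

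In fibroblast-like cells the members took a larger part of the messages in EAE than in health. Their summed share of all UMIs was 13.1% in Healthy 1 (614 cells), 12.9% in Healthy 2 (373 cells) and 13.0% in Healthy 3 (336 cells). It was 19.1% in EAE 1 (1649 cells) and 19.7% in EAE 2 (1141 cells). Each EAE library exceeded each Healthy one, at 19.4% ± 0.44 (SD, n = 2) against 13.0% ± 0.11 (SD, n = 3), a difference of 6.41 percentage points. Exact Clopper-Pearson 95% intervals of these shares, which cover counting error only, were at most as wide as 13.0% to 13.2% in Healthy 1. In the median cell the share was 18.2% in EAE 1 and 18.3% in EAE 2, against 13.2%, 12.2% and 12.3% for Healthy 1 to 3. The interquartile range over cells was 13.8% to 22.1% in EAE 1 and 8.65% to 16.0% in Healthy 3, so single cells of the states overlapped. No p-value is given for the sum. With the barcodes as deposited, copies included, the shares of Healthy 1 and Healthy 2 were 15.6% and 15.2%, and the difference was 4.80 points.

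**Figure D1:**
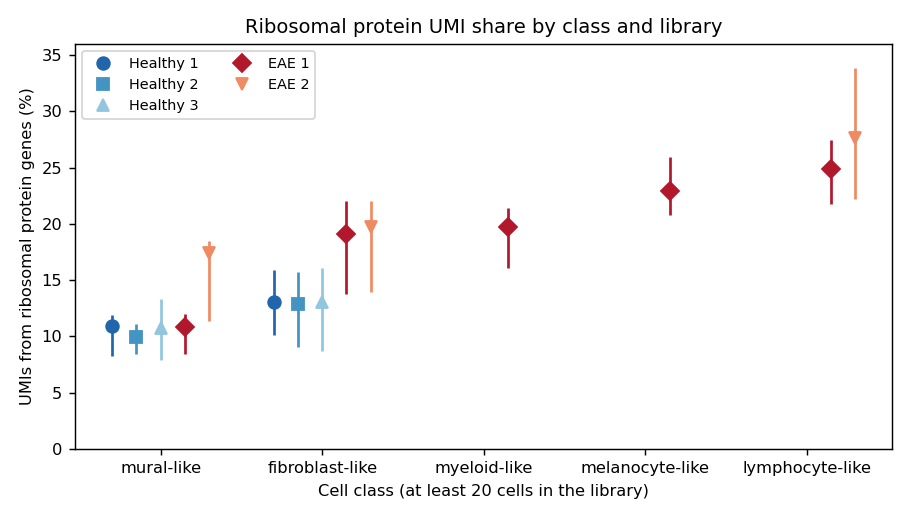
UMIs from the 81 ribosomal protein genes in percent of all UMIs (y axis) for each cell class (x axis) in each library with at least 20 cells of the class. Symbols are the share over the summed cells and lines span the interquartile range over cells. Fibroblast-like cells lie at 12.9% to 13.1% in the Healthy libraries and at 19.1% and 19.7% in the EAE libraries, mural-like cells between 9.91% and 10.9% except for EAE 2 at 17.4%, and lymphocyte-like cells at 24.9% and 27.7%.

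The share moved with the depth of a cell in the EAE libraries, and EAE cells were deeper. Among fibroblast-like cells with 2000 to 4000 UMIs it was 13.0%, 12.5% and 11.5% for Healthy 1 to 3, while EAE 1 had 15.3% and EAE 2 had 17.0%. Both EAE libraries thus remained above all Healthy libraries at matched depth, by 3.86 points on average. Between 4000 and 8000 UMIs the share was 13.5% in Healthy 2 and 13.3% in Healthy 3, against 19.4% in EAE 1 and 17.5% in EAE 2. At 8000 UMIs or more, where only the EAE libraries had 20 cells, it reached 21.7% and 22.8%. Between 1000 and 2000 UMIs the gap was small, with 15.5% in EAE 1 and 15.8% in EAE 2 against 13.1%, 11.7% and 14.6% for Healthy 1 to 3.

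**Figure D2:**
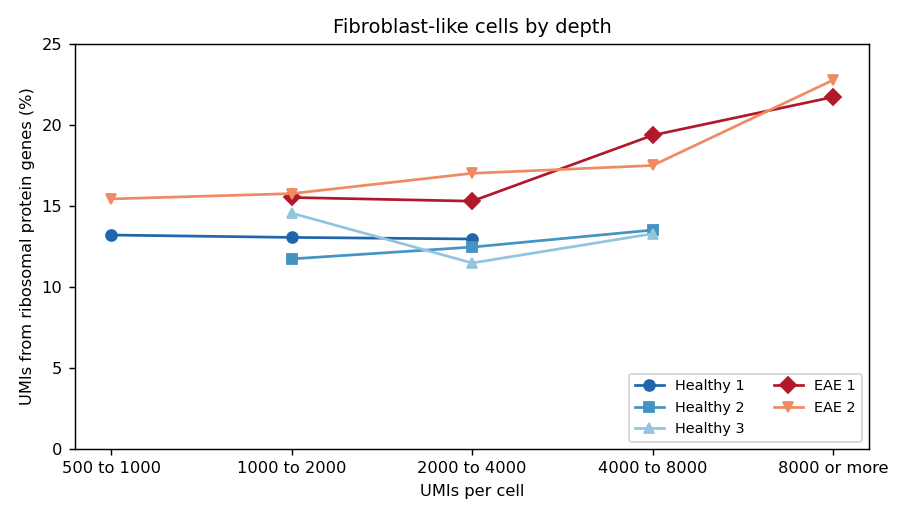
Share of UMIs from ribosomal protein genes in percent (y axis) in fibroblast-like cells grouped by UMIs per cell (x axis), 1 line per library, for groups of at least 20 cells. The EAE lines climb from about 15.5% and 15.4% in their shallowest group to 21.7% and 22.8% in the deepest, and the Healthy lines stay between 11.5% and 14.6%.

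Markers of other cell types also differed between the states within fibroblast-like cells. The summed level of the 8 cycling markers in UMIs per unit of library size (CPM scale) was 6.49, 9.91 and 14.0 CPM for Healthy 1 to 3, 186 CPM for EAE 1 and 92.6 CPM for EAE 2, with all 8 detected in both EAE libraries. The 9 endothelial markers summed to 85.4, 80.1 and 112 CPM in health and to 263 and 270 CPM in EAE, and the 10 arachnoid barrier markers to 385, 294 and 297 CPM against 868 and 483 CPM. The 13 myeloid markers summed to 9.73, 19.0 and 20.9 CPM in health and to 29.7 and 32.5 CPM in EAE. The 9 oligodendrocyte markers were at 38.9, 66.1 and 66.3 CPM against 105 and 112 CPM, and the 6 neuron markers at 2.16, 0 and 2.09 CPM against 22.6 and 16.2 CPM. All 6 of these lists were thus higher in both EAE libraries than in any Healthy one. So were the 8 neutrophil markers, at 3.24, 4.13 and 2.79 CPM in health against 25.6 and 7.42 CPM in EAE. The 7 melanocyte markers were as well, at 11.9, 8.26 and 10.5 CPM against 21.3 and 17.0 CPM. The 13 fibroblast markers were lower in both EAE libraries, at 36483 and 33839 CPM against 36721, 51563 and 39949 CPM in health. The arachnoid barrier and oligodendrocyte lists share Cldn11, so they are not separate signals. Cells with at least 3 cycling markers had a share of 20.5% in EAE 1 (85 cells) and 24.5% in EAE 2 (33 cells). The other fibroblast-like cells were at 18.9% and 19.4%, and without the cycling cells the difference between the states was 6.17 points. The cycling cells were deeper, with medians of 8872 (EAE 1) and 11448 UMIs (EAE 2) against 4555.5 and 5075.5 in the other cells. Among cells of at least 4000 UMIs the cycling cells were at 20.5% and the others at 20.1% in EAE 1. In EAE 2 these were at 24.4% and 19.8%. Cells with at least 3 arachnoid barrier markers were at 17.8% in EAE 1 (171 cells) and 17.5% in EAE 2 (79 cells), below the remaining fibroblast-like cells at 19.2% and 19.9%. Without cells that carried arachnoid barrier or endothelial markers the difference was 5.70 points. The 7 chondrocyte markers were lower in EAE, at 75.1 and 119 CPM against 209, 246 and 257 CPM. The 8 osteoblast markers set Healthy 2 apart at 4419 CPM, with 8.38 to 194 CPM in the other libraries. The part of the myeloid, oligodendrocyte, neuron, neutrophil, melanocyte, fibroblast, chondrocyte and osteoblast lists in the share was not tested.

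Gene by gene, the higher share in EAE came from most members of both subunits and from no member that fell. The UMIs of fibroblast-like cells were summed per library and compared with edgeR's quasi-likelihood test, with a term for batch and Benjamini-Hochberg adjustment over all 9777 genes tested. Of the 78 members tested, 43 rose, 0 fell and 35 did not pass an adjusted p of 0.05, where 10.3% of all genes tested rose and 10.9% fell. Without adjustment 60 members had a p under 0.05. The median log2 fold change of the members was 0.52, against 0.00 over all genes tested, and 77 of 78 members had a positive value. The EAE values were both above the highest Healthy value for 70 members (23.1% of all genes tested) and both below the lowest for 0 (22.5%). For the large subunit 27 of 47 members rose with a median of 0.52, and for the small subunit 16 of 31 rose, also with a median of 0.52. Within the first batch the median log2 difference of the members was 0.47 and within the second 0.53, and 75 of 78 members were higher in EAE in both.

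With the batch term, leaving out EAE 1, EAE 2 or Healthy 3 kept the contrast between the states in 1 batch only. Leaving out Healthy 1 or Healthy 2 kept it in both batches. The share of all genes passing is not given for the alternative settings. A general loss of calls thus cannot be told from one in the members. The number of members that passed rested on few libraries. It was 1 without EAE 1, 4 without EAE 2 and 4 without Healthy 3, 56 and 52 without Healthy 1 and Healthy 2, 27 with DESeq2, 11 with the barcodes as deposited and 3 among cells of 2000 to 4000 UMIs only, while the median log2 fold change stayed between 0.34 and 0.55 under these settings.

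**Figure D3:**
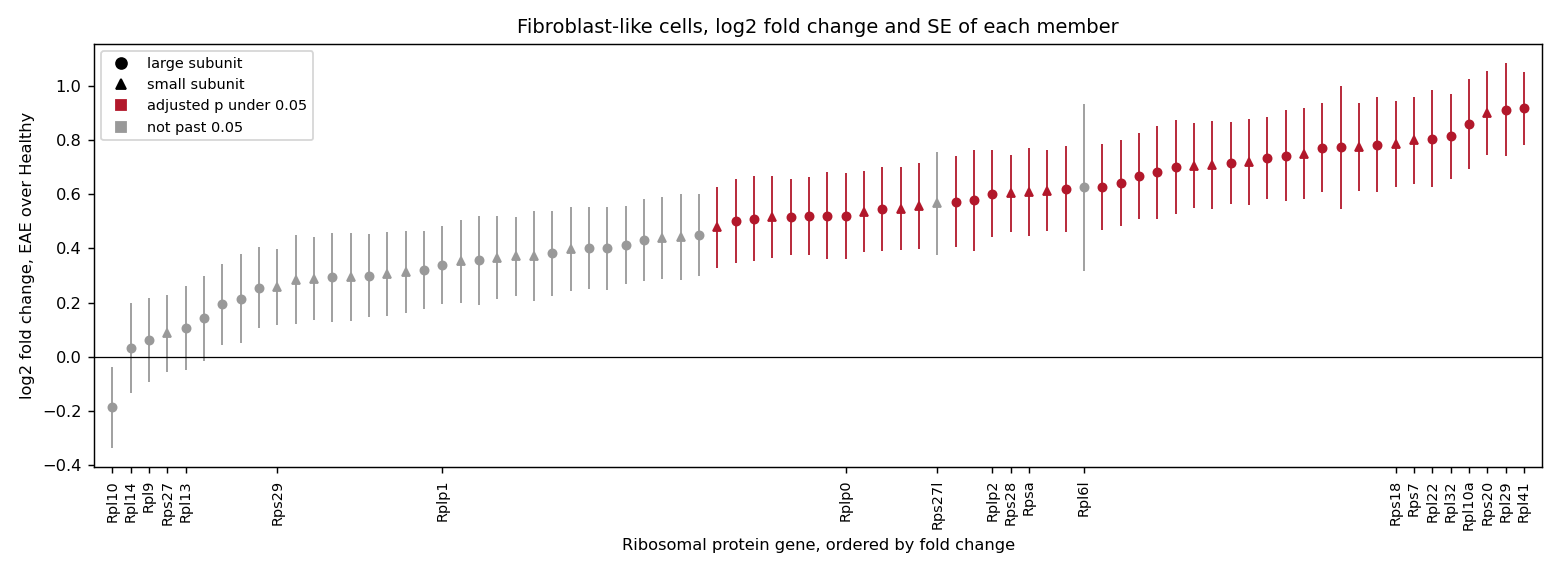
Log2 fold change of EAE over Healthy (y axis) with its standard error (lines) for the 78 tested members in fibroblast-like cells, ordered by value (x axis), with a selection labelled: the members named by rule for this comparison and the 5 of lowest value. Circles are large-subunit and triangles small-subunit members, and red marks an edgeR adjusted p under 0.05. Values run from -0.19 for Rpl10 to 0.92 for Rpl41, and members of both subunits are spread along the whole order.

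The 5 largest rises of the large subunit lay between 0.80 and 0.92 on the log2 scale. Rpl41, which encodes a very short basic protein of the large subunit (chromosome 10, positions 128548114 to 128549305, minus strand, protein coding, mm10), was at 4261, 4450 and 4277 CPM for Healthy 1 to 3, 7775 CPM for EAE 1 and 8707 CPM for EAE 2. Every EAE value lay above every Healthy value, and the log2 fold change was 0.92 (SE 0.13, edgeR adjusted p = 0.000533). For members and other translation genes, CPM use totals scaled by TMM (trimmed mean of M-values), and for cell type markers plain UMI totals. TMM was set anew for the comparison of states in each class and for that of classes, so CPM differ between them for the same cells. Rps28 in fibroblast-like cells of Healthy 1, for example, was at 3129 CPM in the former and 3385 CPM in the latter. Rpl29 (chromosome 9, positions 106429454 to 106431568, plus strand) was at 556, 614 and 549 CPM in health and at 1159 and 963 CPM in EAE, and its log2 rise was 0.91 (SE 0.17, adjusted p = 0.0027 in edgeR). Rpl10a, a protein of the mobile L1 stalk next to the exit site of transfer RNA, was at 827, 984 and 892 CPM in health and at 1623 and 1641 CPM in EAE. Its log2 fold change was 0.86 (edgeR adjusted p = 0.00327). Rpl32 stood at 1538, 1860 and 1597 CPM against 2960 and 2838 CPM, a rise of 0.81. Rpl22, an RNA-binding protein needed for T cell development, was at 497, 526 and 430 CPM against 828 and 830 CPM, a rise of 0.80. None of these 5 members overlapped between the states.

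Small-subunit members rose by similar amounts. Rps20 (chromosome 4, positions 3831334 to 3835665, minus strand) was at 1087, 1105 and 1070 CPM for Healthy 1 to 3, 2080 CPM for EAE 1 and 1955 CPM for EAE 2. Its log2 fold change was 0.90 (SE 0.16, edgeR adjusted p = 0.00152), with no overlap between the states. Rps7 was at 1123, 1314 and 1117 CPM against 2084 and 1989 CPM, a rise of 0.80. Rps18, which sits in the head of the small subunit (chromosome 17, positions 33951999 to 33956001, minus strand), was at 1838, 2190 and 1497 CPM against 3258 and 2807 CPM, a rise of 0.79. Rps28 was at 3129, 3475 and 3774 CPM against 4781 and 6113 CPM, a rise of 0.60 (SE 0.14, edgeR adjusted p = 0.0102). For Rps7, Rps18 and Rps28, too, the EAE values were both above the highest Healthy value. Of the 3 genes of the stalk that recruits elongation factors, Rplp0 and Rplp2 rose by 0.52 and 0.60. Rplp0 was at 1990, 2478 and 1844 CPM in health and at 3116 and 2748 CPM in EAE. Rplp1, which forms dimers with Rplp2 on Rplp0, was at 2988, 2790 and 2453 CPM against 3700 and 3051 CPM. Its log2 value of 0.34 did not pass (edgeR adjusted p = 0.118), although both EAE values were above all Healthy ones. Rpsa, a small-subunit protein also known as a laminin receptor, was at 1052, 1013 and 960 CPM against 1508 and 1548 CPM, a rise of 0.61.

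A few members stayed near their healthy level while the rest of the set was higher. Of the 35 members that did not pass, 34 had a positive log2 value, and 7 members in all were under 0.20. Rpl10 (chromosome X, positions 74270812 to 74273135, plus strand), which joins the large subunit late in its assembly, was at 2815, 2660 and 2307 CPM for Healthy 1 to 3, 2334 CPM for EAE 1 and 2113 CPM for EAE 2. EAE 2 was the lowest library, EAE 1 lay among the Healthy ones, and the log2 value was -0.19 (SE 0.15, edgeR adjusted p = 0.429). As a part of all ribosomal protein UMIs, Rpl10 made up 2.08%, 1.92% and 1.75% in health and 1.26% and 1.12% in EAE, whereas Rpl41 made up 3.14%, 3.21% and 3.24% in health and 4.19% and 4.60% in EAE. Among the 81 members, parts of this kind were above all Healthy libraries in both EAE libraries for 20 and below them for 14. Such parts are taken within the members' own sum, so a larger part of some goes with a smaller part of others. They have no share over all genes to be set against, so these counts are a description only. Rps27 was at 4812, 4875 and 4307 CPM against 4753 and 5086 CPM, a log2 value of 0.09 (edgeR adjusted p = 0.719) with overlapping states. Rps29 was at 5200, 4505 and 5400 CPM against 5642 and 6695 CPM. Its log2 value of 0.26 did not pass, although, unlike for Rpl10 and Rps27, both EAE values were above all Healthy ones. Rpl14, Rpl9 and Rpl13 had log2 values of 0.03, 0.06 and 0.11, and their states overlapped. Rpl10, Rpl14, Rpl9 and Rpl13 were picked out after their values were seen.

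Copies of other members were low or split by batch. Rps27l, a copy of Rps27 that p53 is known to induce, was at 302, 279 and 238 CPM in health and at 444 and 337 CPM in EAE, a log2 value of 0.57 that did not pass (edgeR adjusted p = 0.0536). Rpl6l, which the annotation lists as a processed pseudogene of chromosome 10 (positions 111125851 to 111126721), was at 236, 339 and 367 CPM in Healthy 1, Healthy 2 and EAE 1 and at 2.12 and 8.52 CPM in Healthy 3 and EAE 2. Its levels thus followed the batch, and reads of Rpl6 and Rpl6l may not be told apart. Rpl10l, a copy used in the testis, had 0 UMIs in every library and class, which in fibroblast-like cells of EAE 1 allows up to 0.349 CPM. Rpl39l had 1, 1 and 3 UMIs in fibroblast-like cells of Healthy 1, Healthy 2 and EAE 1, and Rpl3l, a copy of striated muscle, had 1 UMI, in myeloid-like cells of EAE 1. All 3 were too low to be tested.

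Members with and without a pyrimidine run near the start had similar medians. The median log2 fold change was 0.57 among the 31 tested members with a run of 7 or more, 18 of which rose. It was 0.51 among the 26 without, 15 of which rose. Of all genes tested 10.3% rose, and that share was not split by run. Among the windows printed above, Rps27 had a run of 9 bases and a log2 value of 0.09, and Rpl41 a longest run of 3 bases and a value of 0.92.

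Other genes of the translation machinery did not all move like the members. The counts of each list stand against 10.3% of all genes tested that rose and 10.9% that fell. Of 8 ribosomal proteins whose symbols fall outside the rule, 2 rose and 0 fell. Gnb2l1, the small-subunit scaffold also called Rack1, was at 328, 331 and 300.2 CPM for Healthy 1 to 3, 758 CPM for EAE 1 and 675 CPM for EAE 2, and rose by 1.19 on the log2 scale (SE 0.18, adjusted p = 0.000645 in edgeR). Rpl36al rose by 0.73. Rpl22l1, the copy of Rpl22, was at 1762, 1511 and 1463 CPM against 1463 and 1440 CPM, a log2 value of -0.10 that did not pass (edgeR adjusted p = 0.717). Fau, Rps3a1, Rpl7l1 and Rps27rt had values from -0.28 (Rps27rt) to 0.40 (Rps3a1), and none of them passed. Of 16 elongation factors and other pyrimidine-motif messages 4 rose and 1 fell, with a median of 0.46. Eef1b2, a subunit of the exchange factor for eEF1A, was at 365, 315 and 364 CPM against 761 and 773 CPM, a rise of 1.13. Pabpc1, the cytoplasmic poly(A)-binding protein, fell by 0.76 on the log2 scale.

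The lists for initiation, ribosome assembly and mitochondrial ribosomes had medians near that of all genes. Here, too, 10.3% of all genes tested rose and 10.9% fell. Of 28 initiation factors 2 rose and 2 fell, with a median of 0.15. Eif4g2 and Eif3c rose by 0.66 and 0.64. Eif1, which guards start codon choice, was at 2623, 2510 and 2429 CPM in health and at 1369 and 1489 CPM in EAE, and Eif4a2, an RNA helicase, was at 502, 445 and 415 CPM against 206 and 217 CPM. Both fell, by 0.82 and 1.08 on the log2 scale. Of 29 assembly genes 1 rose and 5 fell, with a median of 0.05. Polr1a, the largest subunit of the polymerase that makes ribosomal RNA, rose by 1.25 from 7.83, 9.80 and 13.5 CPM to 26.5 and 24.5 CPM. Nop58 and Nop56, core proteins of the particles that methylate ribosomal RNA, fell by 1.33 and 0.95. Of 75 mitochondrial ribosomal proteins 2 rose (Mrpl57 and Mrpl30), 1 fell (Mrps6) and 72 did not pass, with a median of 0.07. Of 20 genes of growth control 3 rose and 2 fell, counts near the shares over all genes tested, with a median of 0.02. The genes named from this list were taken by size of change and do not speak for the list. Eif4ebp1, the repressor of cap-dependent translation that mTOR inactivates, was at 35.8, 38.3 and 30.4 CPM in health and at 100.3 and 79.9 CPM in EAE, a rise of 1.42. Rps6ka3, a kinase downstream of growth factors, rose by 1.02. Ddit4, an inhibitor of mTOR complex 1, and Rheb, its activator, fell by 0.94 and 0.63.

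Only mural-like and fibroblast-like cells numbered at least 20 in all 5 libraries. In each library the mural-like cells held the lower part of these messages. Their summed share was 10.9% in Healthy 1 (44 cells), 9.91% in Healthy 2 (39 cells) and 10.7% in Healthy 3 (26 cells). It was 10.9% in EAE 1 (62 cells) and 17.4% in EAE 2 (32 cells). EAE 1 lay among the Healthy libraries and EAE 2 far above them. The mean was 14.2% ± 4.64 (SD, n = 2) in EAE and 10.5% ± 0.54 (SD, n = 3) in health. The difference of 3.64 points was smaller than the spread between the EAE libraries, and it was 0.36 points without EAE 2. Under a stricter gate, which asked for more markers and fewer from other classes, the share was 10.1% in EAE 1 and 14.0% in EAE 2.

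No member passed the test between the states in mural-like cells. Of 78 members tested with edgeR 0 rose and 0 fell, where 1.98% and 1.20% of the 2677 genes tested did. The unadjusted p was under 0.05 for 2 members (Rpl29 and Rps20), and DESeq2 also called 0. The median log2 value was 0.30, against 0.01 over all genes tested, and 77 members were positive. Under a stricter gate, where Healthy 3 had 19 cells and dropped out, the median of the members was -0.04. EAE 2 was then alone in its batch, so with the batch term this value compares EAE 1 with Healthy 1 and Healthy 2 only. The part of the gate in the step from 0.30 to -0.04 therefore cannot be told from that of the lost second batch. The EAE values were both above the highest Healthy value for 15 members (13.0% of all genes tested) and both below the lowest for 0 (11.3%). The median log2 difference was 0.02 within the first batch and 0.68 within the second. Rpl29, with the smallest p, had a log2 value of 0.85 (SE 0.37, edgeR adjusted p = 0.289). Rpl41 was at 4702, 4247 and 5172 CPM for Healthy 1 to 3, 5235 CPM for EAE 1 and 9394 CPM for EAE 2, so EAE 2 alone stood apart.

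The mural-like cells of EAE 2 also differed in their markers. Rgs5, a pericyte marker, was at 1154, 2120 and 1971 CPM for Healthy 1 to 3, 3588 CPM for EAE 1 and 8368 CPM for EAE 2. Acta2, a smooth muscle actin, was at 8512, 10957 and 7843 CPM for Healthy 1 to 3, 7353 CPM for EAE 1 and 2197 CPM for EAE 2, the lowest of all. Of the other mural markers, Kcnj8, Abcc9, Notch3, Cspg4, Higd1b and Ndufa4l2 were also highest in EAE 2. Myh11, Tagln, Myl9 and Mustn1 were lowest there. Vtn was lowest there too, at 1623 CPM against 1843, 3860 and 5008 CPM for Healthy 1 to 3 and 2041 CPM for EAE 1. Des, at 305 CPM in EAE 2, lay among the other libraries. The cycling markers summed to 0, 301 and 16.8 CPM in health and 210 and 429 CPM in EAE, and the fibroblast markers to 4328, 5299 and 7961 CPM in health and 12728 and 7634 CPM in EAE. Without cells that had at least 3 cycling markers the share of EAE 2 was 15.8% (25 cells), and the other libraries were between 9.95% and 10.9%. Without cells that carried arachnoid barrier or endothelial markers it was 14.7%, on 14 cells, and the other libraries were between 9.73% and 10.9%. Among cells of 2000 to 4000 UMIs it was 11.1%, on 8 cells, against 10.0% in EAE 1 and 11.7%, 9.38% and 7.09% for Healthy 1 to 3, of which Healthy 1 and Healthy 3 had 10 and 5 such cells. The part of the pericyte and smooth muscle markers in the share was not tested. The difference in state effect between mural-like and fibroblast-like cells, tested as an interaction in edgeR, passed for 0 of 78 members in either direction (0.774% and 1.77% of all genes tested). The smallest adjusted p of a member was 0.65 and 0 members had an unadjusted p under 0.05. The median interaction was -0.10, and it was 0.21 without EAE 1 and -0.35 without EAE 2.

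Within libraries, most members were lower in mural-like than in fibroblast-like cells. With library as a term in edgeR, 53 of 78 members were lower and 0 higher (9.19% and 7.58% of the 9702 genes tested), with a median log2 difference of -0.57 against -0.12 over all genes. All 78 members had a negative value. In each of the 5 libraries 69 were below fibroblast-like cells (17.9% of all genes tested) and 0 above (8.96%). The small subunit gave 23 of 31 and the large 30 of 47. Library by library the median log2 ratio was -0.61, -0.58 and -0.42 in Healthy 1 to 3, -0.86 in EAE 1 and -0.31 in EAE 2. The number passing was 14 when libraries were scaled by their totals, 31 without Healthy 1 and 19 without Healthy 2.

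Rps28, Rps27, Rplp1 and Rpl10 had the largest differences. Rps28 was at 3385, 3755 and 4084 CPM in fibroblast-like cells of Healthy 1 to 3 and at 1745, 1652 and 2337 CPM in mural-like cells of the same libraries. In EAE 1 and EAE 2 the pairs were 5027 and 2128 CPM, and 6594 and 4375 CPM. The log2 difference was -0.96 (SE 0.16, edgeR adjusted p = 6.7e-05), lower in 5 of 5 libraries. Rps27 was at 5204, 5268 and 4660 CPM in fibroblast-like cells of Healthy 1 to 3 against 2574, 2524 and 2712 CPM in mural-like cells, and at 4998 and 5486 CPM against 2809 and 3392 CPM in EAE 1 and EAE 2, a log2 difference of -0.88. It was thus a member whose level differed between classes in every library and not detectably between states. Rplp1 and Rpl10 differed by -0.80 and -0.79, also in all 5 libraries.

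**Figure D4:**
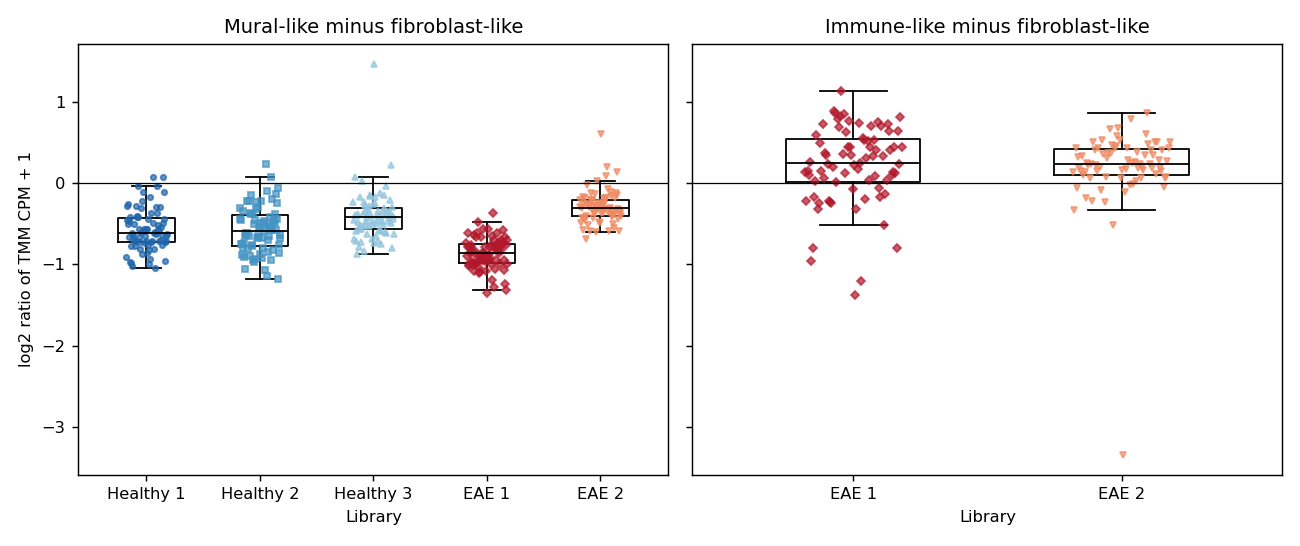
Log2 ratio of the CPM of each of the 78 tested members (points) in mural-like (left) or immune-like (right) cells over fibroblast-like cells of the same library (x axis), with boxes at the median and the quartiles and whiskers to the last point within 1.5 times the box. Mural-like medians are between -0.86 and -0.31 in all 5 libraries and immune-like medians are 0.25 and 0.24. The lowest point in EAE 2 at -3.35 is Rpl6l, which was at 0 CPM in the immune-like cells of that library.

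Immune-like cells carried more of these messages than fibroblast-like cells of the same library, and lymphocyte-like cells the most. All immune-like cells together were at 21.3% in EAE 1 and 23.9% in EAE 2, against 19.1% and 19.7% in fibroblast-like cells. The summed share was 24.9% in lymphocyte-like cells of EAE 1 (37 cells) and 27.7% in those of EAE 2 (21 cells). Myeloid-like cells were at 19.7% in EAE 1 (86 cells), and EAE 2 held only 11 of them. All fibroblast-like cells of EAE 1 were at 19.1%, but these were deeper, with a median of 4675 UMIs against 3105.5 in myeloid-like cells. Fibroblast-like cells of EAE 1 with 2000 to 4000 UMIs were at 15.3%. The classes were not compared here at matched depth. Melanocyte-like cells, found in number in EAE 1 only, were at 22.9% (46 cells) with a median of 14750.5 UMIs per cell. By summed share, without matching depth, the order of the classes in EAE 1 was lymphocyte-like, melanocyte-like, myeloid-like, fibroblast-like and mural-like. Myeloid-like and fibroblast-like cells were neighbours in that unmatched order, and the former's 19.7% equalled the rounded value of fibroblast-like cells in EAE 2. The cycling markers summed to 1282 and 925 CPM in lymphocyte-like and melanocyte-like cells of EAE 1. In its myeloid-like, fibroblast-like and mural-like cells they summed to 117, 186 and 210 CPM. Fibroblast-like cells of EAE 1 with 8000 UMIs or more were at 21.7%. The part of depth and of cycling cells in this order was not tested.

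Few single members told immune-like from fibroblast-like cells. Of 78 members 7 were higher in edgeR, a share near the 10.3% of all genes tested that were, and 1 was lower, where 13.8% of all genes tested were. The median log2 difference was 0.29, against -0.18 over all genes, and 53 members were above in both EAE libraries (28.0% of all genes tested) and 6 below (41.7%). Rpl32 was at 3113 CPM in fibroblast-like and 5779 CPM in immune-like cells of EAE 1 and at 3061 and 4407 CPM in those of EAE 2. Its log2 difference was 0.76 (SE 0.25, edgeR adjusted p = 0.024), higher in 2 of 2 libraries. Rps24 and Rpl18 were each higher by 0.71, and Rpl6l was lower by 1.34 on the log2 scale. This only lower member is the pseudogene whose levels followed the batch. In EAE 2 it was near the floor, at 0 CPM in immune-like cells (a sum of 110104 UMIs) and 9.19 CPM in fibroblast-like cells. The number higher was 25 with DESeq2, 16 without EAE 2 and 0 without EAE 1, so this count depended on the tool and on the library.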

How the data were processed

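The authors deposited UMI counts per gene and barcode, 1 table per library, with Cell Ranger 2.1.1, Seurat 3 and build mm10 named per the submitters' processing notes. How cells were called was not given in the sources used here. Barcodes were counted once, needed 200 genes or more and no more than 10% mitochondrial UMIs, and were classed by marker lists. Fibroblast-like and mural-like cells needed at least 3 detected markers holding 1% of UMIs and immune-like and melanocyte-like cells 3 holding 0.2%; these limits were set after seeing marker distributions, and class names rest on them. Counts were summed per library and class (at least 20 cells) and tested with edgeR 4.0.16 (limma 3.58.1, R 4.3.3), with TMM scaling and the filter on low counts. DESeq2 1.42.0 was an alternative. Tests were tried on simulated data. Differences within a batch and ratios between classes used log2(CPM + 1).

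Members and lists were chosen with earlier results of these data known. Named were the 8 largest rises and falls past an adjusted p of 0.05 (mean CPM 20 or more) in fibroblast-like cells, 4 in other comparisons, the 4 members of highest mean CPM, Rplp0, Rplp1, Rplp2, Rpsa, copies of members, and up to 2 rises and 2 falls per other list. Gene positions are from GENCODE M21 and promoters from RefSeq. Some genes are not reported here.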

Additional observations from a re-analysis of the deposited data

How the results depend on the processing

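The direction of the fibroblast-like results held, and the number of members past the threshold did not. Of 78 members 43 rose; the number was 27 with DESeq2, 11 with barcodes as deposited and, in an alternative added after seeing the data, 3 among cells of 2000 to 4000 UMIs, and it ran from 1 to 56 as libraries were left out in turn. It was 57 with scaling by library totals, 57 without the filter on low counts, 34 without the batch term, and 41 and 36 without cycling cells and without cells carrying arachnoid barrier or endothelial markers, both also added later. The difference in summed share was 6.41 points; it was 4.80 as deposited, 5.21 as a mean over cells, 3.86 at 2000 to 4000 UMIs and 5.70 without cells carrying arachnoid barrier or endothelial markers. Mural-like against fibroblast-like cells gave 53 lower members, 14 with library totals and 19 to 63 with a library left out. Immune-like against fibroblast-like cells gave 7 higher members, 25 with DESeq2, 1 without the filter, 4 with scaling that left out the members, 2 under the stricter gate and 0 to 16 with a library left out. It gave 1 lower member, 0 with DESeq2, 2 under the stricter gate and 0 to 4 with a library left out. The myeloid-like share of 19.7% was 20.3% without mitochondrial UMIs and 19.1% as a mean over cells and 19.9% under the stricter gate. Rpl6l turned to -0.026 without the batch term and passed at 0.89 without Healthy 2 and at 0.73 without the filter on low counts. Rps27 ran from -0.019 without Healthy 3 to 0.25 without EAE 1 and passed in neither. The cause of these shifts was not tested. No paired analysis was possible because the labels of the states share fewer than 2 replicate numbers. The mural-like sums held 62385 to 204276 UMIs and the immune-like sum of EAE 2 held 110104, against 925170 or more in each fibroblast-like sum, which limits what those comparisons can detect.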

Other observations

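Rpl32 stood at 9620 CPM in the melanocyte-like cells of EAE 1, above all 12 other sums of a library and class in the same scaling, which ran from 1171 CPM (mural-like, Healthy 2) to 5779 CPM (immune-like, EAE 1). It was picked after its values were seen, and only 1 library held these cells in number. The members as a whole had a median log2 ratio of 0.31 in melanocyte-like over fibroblast-like cells of that library, from -1.87 to 1.63, with 53 above and 25 below.

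Rps27rt, a copy related to Rps27 outside the symbol rule, was at 1379, 2851 and 1668 CPM in fibroblast-like cells of Healthy 1, Healthy 2 and EAE 1, and at 786 and 687 CPM in Healthy 3 and EAE 2. Every library of the first batch lay above every library of the second, as for Rpl6l. How the tables divided reads between near-identical copies was not tested.

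The ratio of large-subunit to small-subunit UMIs was 1.31, 1.36 and 1.31 in fibroblast-like cells of Healthy 1 to 3 and 1.37 and 1.31 in those of EAE 1 and EAE 2, so the ranges of the states overlapped. In mural-like cells it was 1.38, 1.45 and 1.33 in health and 1.48 and 1.34 in EAE, and in immune-like cells 1.21 in EAE 1 and 1.33 in EAE 2.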
